A study of Mus musculus with 3 samples.

Results

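F2 is the smallest of the 9 cell clusters that the authors assigned in their deposited cell table, and its 56 cells of 4374 are described here. Membership was taken from that table alone: 8 of 2280 cells of the urinary bladder matrix (UBM) library, 3 of 341 saline cells and 45 of 1753 polycaprolactone (PCL) cells carried the label. The cells came from the quadriceps of mice whose muscle had been partly removed by surgery 1 week earlier, and were sorted as macrophages before droplet sequencing of 3' ends. The wound was treated with UBM, a decellularised scaffold, with PCL, a synthetic polyester, or with saline, and 1 library was made for each treatment. All 3 groups thus share the injury, the time and the sort. The sources used here give no strain, age, number of mice or sort gate. With 1 library for each treatment no test between treatments was possible, and because clusters were built from the same genes, F2 against other cells is a description with no test. Intervals are 95% intervals for counting error only.

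Neutrophils are short-lived granulocytes that are drawn from blood into a wound early. They carry large amounts of the calcium-binding proteins S100A8 and S100A9, which pair as calprotectin, sense chemokines through CXCR2 and depend on granulocyte colony-stimulating factor through its receptor CSF3R. Resting neutrophils hold little RNA and few kinds of it, while macrophages hold more and express complement C1q, the phagocytic receptors of the tissue and, when activated, MHC class II. The series concerns interleukin-36 gamma, an interleukin-1 family cytokine that is encoded in the mouse by Il1f9, and Il1f9 is among the 7 genes that mark F2, with S100a8, S100a9, Retnlg, Il1r2, Hdc and G0s2.

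The bases before the start sites of 4 marker genes are shown because these are among the 7 markers that give F2 its working name: S100a8 and S100a9, the neutrophil hormone-like gene Retnlg, and Il1f9. Each run holds the 250 bases before the RefSeq start site on GRCm38.p6, read 5' to 3' on the gene's strand. Capitals mark a match to TTNNGCAA, a core of the sites of C/EBP factors, or to GAGGAAGT, a core of the sites of PU.1, on either strand. The windows are chr3:90668821-90669070 (plus strand) for S100a8, chr3:90695722-90695971 (minus strand) for S100a9, chr16:48872358-48872607 (plus strand) for Retnlg and chr2:24186226-24186475 (plus strand) for Il1f9.
S100a8: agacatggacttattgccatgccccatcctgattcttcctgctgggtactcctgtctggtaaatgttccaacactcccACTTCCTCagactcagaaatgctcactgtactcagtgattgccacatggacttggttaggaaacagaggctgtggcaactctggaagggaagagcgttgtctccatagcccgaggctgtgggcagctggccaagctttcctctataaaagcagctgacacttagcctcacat
S100a9: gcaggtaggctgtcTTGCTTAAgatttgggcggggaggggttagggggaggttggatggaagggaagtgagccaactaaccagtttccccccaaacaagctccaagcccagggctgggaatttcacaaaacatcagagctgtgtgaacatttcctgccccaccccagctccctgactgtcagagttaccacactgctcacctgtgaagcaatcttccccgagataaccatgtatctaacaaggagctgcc
Retnlg: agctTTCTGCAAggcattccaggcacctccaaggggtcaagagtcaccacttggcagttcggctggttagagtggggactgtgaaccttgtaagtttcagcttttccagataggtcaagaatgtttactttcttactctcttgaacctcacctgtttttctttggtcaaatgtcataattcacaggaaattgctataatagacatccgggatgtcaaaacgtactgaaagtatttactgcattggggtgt
Il1f9: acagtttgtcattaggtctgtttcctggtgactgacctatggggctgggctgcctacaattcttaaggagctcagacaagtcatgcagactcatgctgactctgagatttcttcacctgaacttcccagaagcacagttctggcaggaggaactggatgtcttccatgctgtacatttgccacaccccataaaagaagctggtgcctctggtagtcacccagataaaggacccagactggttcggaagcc
S100a9 and Retnlg held 1 match each to the C/EBP letters, S100a8 held 1 match to the PU.1 letters, and Il1f9 held neither. Of the 48 neutrophil list genes measured, 39 were matched to a window by symbol, and 9 of these held the C/EBP letters and 3 the PU.1 letters. Over all 27025 genes with a window of this length, 10.8% held the C/EBP letters and 2.79% the PU.1 letters. In the windows printed no match to either motif overlapped a match to the other. A match describes the letters only.

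In the PCL library 45 cells (2.57%, interval 1.88 to 3.42%) were F2. In the UBM library 0.351% (0.152 to 0.690%) and in the saline library 0.880% (0.182 to 2.55%) of cells were F2. The PCL F2 cells held 248079 unique molecular identifiers (UMIs, each counting 1 captured RNA molecule), which was 2.25% of the 11006118 UMIs of that library. The UBM F2 cells held 33319 and the saline F2 cells 8845 UMIs. Library totals were between 1888343 and 14586276 UMIs. Between libraries 6 cell barcodes were shared, by 12 cells, of which 1 was an F2 cell.

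Before the results, the label was set against the markers in each library. All 45 PCL and all 8 UBM F2 cells held S100a8 and S100a9, and 43 of the 45 and 6 of the 8 held a UMI of at least 4 of the 7 markers. The 3 saline cells held S100a8, S100a9 and Il1f9 but no UMI of Retnlg, Il1r2, Hdc, G0s2 or Csf3r, and none reached 4 markers. The saline cells thus go against a neutrophil name on 4 of the 7 markers, and are called here by their label. None of the values for PCL rests on them.

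Within the PCL library the cells of F2 fell into 2 separate ranges of genes per cell. In 17 cells between 611 and 939 genes were detected (median 740), and in the other 28 between 1391 and 3710 (median 2144.5), with 0 cells between. They are called gene-poor and gene-rich below. The dividing value of 1000 genes was chosen after the data were seen, and each is a range, not a type. Gene-poor cells held a median of 2288 UMIs (1971 to 2767), gene-rich cells 6775 (3073 to 18037), and the 1708 other PCL cells 5697.5.

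**Figure D1:**
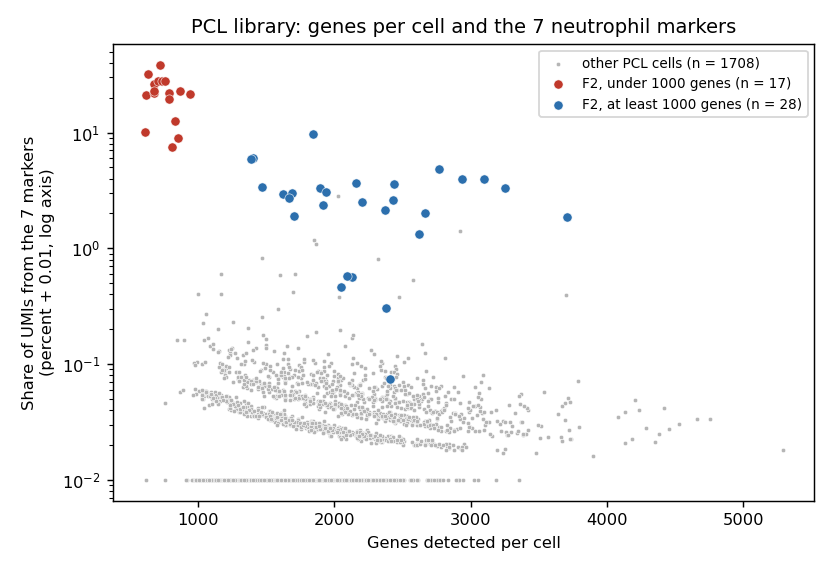
Genes detected per cell (x axis) against the share of each cell's UMIs from the 7 markers, in percent with 0.01 added (y axis, log scale), for the 1753 cells of the PCL library. Each point is 1 cell: the 17 gene-poor F2 cells lie at the upper left, the 28 gene-rich F2 cells between 0.0644% and 9.73%, and the 1708 other cells at up to 2.84%.

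The 7 markers made up 22.1% of all UMIs of the gene-poor cells, 2.76% of those of the gene-rich cells and 0.0356% of those of other PCL cells. Per cell their share was 7.43 to 38.5% (median 22.0%) in gene-poor and 0.0644 to 9.73% (median 2.80%) in gene-rich cells. The plot of marker share against genes per cell shows the 2 ranges and the cells around them. In both ranges the median cell held 6 of the 7 markers. Of the 5 F2 cells of the PCL library with the lowest shares, the lowest held 0.0644% and 2 markers, and the next held 0.294% and 6 markers. Outside F2, 4 PCL cells had a share over 1%, and the highest was an F1 cell at 2.84%.

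Other PCL cells with under 1000 genes are set beside the gene-poor F2 cells here. Their low marker share follows in part from the cluster label, which was built from the same genes. Whether low gene number bears on the composition of F2 cells was not tested. The 25 other PCL cells with under 1000 genes held a median of 2056 UMIs and at most 0.151% marker UMIs. Ribosomal protein genes made up a median of 3.09% of UMIs in gene-poor F2 cells (1.78 to 5.30%), 10.3% in those 25 cells (2.66 to 22.8%) and 11.1% in gene-rich F2 cells. Mitochondrial genes made up 0.506% (0.158 to 1.12%), 4.85% (0.988 to 62.6%) and 3.32% (0.978 to 10.3%), in the same order. The gene-poor cells thus overlapped the other gene-poor cells of the library in UMIs but were lower in ribosomal and mitochondrial shares at the median.

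The calprotectin genes were the most abundant of the 7 markers in F2. With 25 CPM (counts per 1000000 UMIs) added to each level their ratios to other PCL cells were the highest of all genes compared. With nothing added the folds of some other genes were larger, Retnlg, Lcn2, Pglyrp1 and Mrgpra2b among them. S100a8 was at 32256 CPM in PCL F2 cells and at 205 CPM in other PCL cells, 158-fold higher (interval 150 to 165). Per cell, S100a8 counts were 59, 317 and 594 UMIs (lowest, median, highest) in gene-poor cells and 2, 88 and 341 in gene-rich cells, against a median of 1 and a highest of 96 in other cells. The 2 ranges overlapped in UMIs, but over summed cells S100a8 was at 123143 CPM in gene-poor and 15280 CPM in gene-rich cells. S100a9, its partner, was at 22211 against 122 CPM, 182-fold higher (171 to 194), with 67, 191 and 312 UMIs in gene-poor and 1, 64.5 and 215 in gene-rich cells. Every PCL F2 cell held both transcripts. S100a11, a relative of broad expression, was at 3656 against 1439 CPM, 2.54-fold higher (2.37 to 2.72).

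S100a8 and S100a9 were also seen outside F2 and at a level that differed between libraries. A UMI of S100a8 was found in 997 of 1708 other PCL cells, and with each cell thinned to 1500 UMIs in an expected 22.8% of them, against 97.3% of F2 cells. Other UBM cells, at a median depth of 5483 UMIs against 5697.5, held it in 63 of 2272. S100a9 was found in 692 other PCL cells and in 27 other UBM cells. Per 100 UMIs of S100a8 there were 68.2 of S100a9 (65.2 to 71.3) in gene-poor F2 cells, 69.8 (66.1 to 73.7) in gene-rich F2 cells and 59.6 (55.6 to 63.8) in other PCL cells. The interval of S100a9 in other cells lay below both of those in F2. Hdc, at 2.27, 2.16 and 2.45 UMIs per 100 of S100a8, had overlapping intervals in the 3 groups of cells, while Il1r2, at 1.83, 2.10 and 5.18, was higher in other cells. The part of RNA set free from broken cells in the counts outside F2 was not tested.

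Genes of granules and secreted defence proteins followed. Retnlg was at 1193 CPM in F2 and 5.58 CPM in other PCL cells, 214-fold higher (162 to 287). It was seen in 16 of 17 gene-poor cells (highest 63 UMIs) and in 16 of 28 gene-rich cells (highest 32), and thinned shares were 89.8% and 24.0%, against 0.819% of other cells. Lcn2 (lipocalin, which binds bacterial iron carriers) was at 347 against 1.21 CPM, Pglyrp1 (a peptidoglycan-binding protein) at 371 against 1.30 CPM, and Hp (haptoglobin) at 415 against 89.2 CPM. All 3 are proteins of neutrophil granules. The protease inhibitor Slpi was at 1822 against 109 CPM and its relative Wfdc21 at 568 against 32.5 CPM. For Slpi 23.2% of the F2 UMIs came from 1 cell.

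Granule genes were also taken by class. Of the 9 genes listed for secondary granules, 6 were measured. Lcn2, Pglyrp1 and Hp were at least 1.5-fold higher and Chil3 was lower (96.7 against 203 CPM). By that rule 14.0% of all 1511 genes at the minimum were higher and 13.4% lower. The 3 higher genes reached the minimum only through F2 and could not have come out lower. Cd177 and Ltb4r1 fell under the minimum level of 100 CPM. Ltb4r1 was on the list but encodes a leukotriene B4 receptor, not a granule protein. Chil3 had 0 UMIs in gene-poor cells. Of the 7 primary granule genes, which neutrophils transcribe while still in bone marrow, 3 were measured and none reached the minimum, and Prtn3 (proteinase 3) gave 2 UMIs, in 2 gene-rich cells. Of 11 genes of tertiary granules and secretory vesicles measured, 9 reached the minimum, with a median log2 ratio of -0.00029. Of the 9, 3 were at least 1.5-fold higher, 1 was lower and 5 were neither, against 14.0% higher and 13.4% lower of all genes. The lower count is near the share over all genes. The 3 higher genes, Mmp9 and the receptors Fpr1 and Fpr2, reached the minimum only through F2 and could not have come out lower. The gelatinase gene Mmp9 was at 141 against 21.5 CPM, in 24 of 45 cells, and the collagenase gene Mmp8, under the minimum, at 80.6 against 8.09 CPM. Cybb, the catalytic subunit of the NADPH oxidase, had 0 UMIs in gene-poor cells, which puts it at least 5.12-fold below other PCL cells, against 316 CPM in gene-rich cells. Ncf1, another subunit of the oxidase, was at 256, 211 and 182 CPM in gene-poor, gene-rich and other cells.

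Several intracellular and enzyme genes belonged to the same top group. Hdc, which makes histamine, was at 718 against 5.02 CPM and was found in 39 of 45 cells. G0s2, an inhibitor of a triglyceride lipase, was at 625 against 5.86 CPM, and Irg1, which makes itaconate, at 468 against 10.9 CPM. Lmnb1 (lamin B1 of the nuclear lamina) was at 447 against 48.7 CPM, Asprv1 (an aspartic protease) at 331 against 1.95 CPM and Rdh12 (a retinol dehydrogenase) at 209.6 against 1.86 CPM. Lrg1, a secreted leucine-rich glycoprotein, was at 649 against 42.2 CPM. Ifitm1, an antiviral membrane protein gene, was at 2882 against 46.2 CPM and present in 43 of 45 cells. Gm5483 (907 against 4.83 CPM) and Stfa2l1 (411 against 3.16 CPM) are members of the stefin A family of near-identical copies, so how reads were shared between the copies is uncertain.

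**Figure D2:**
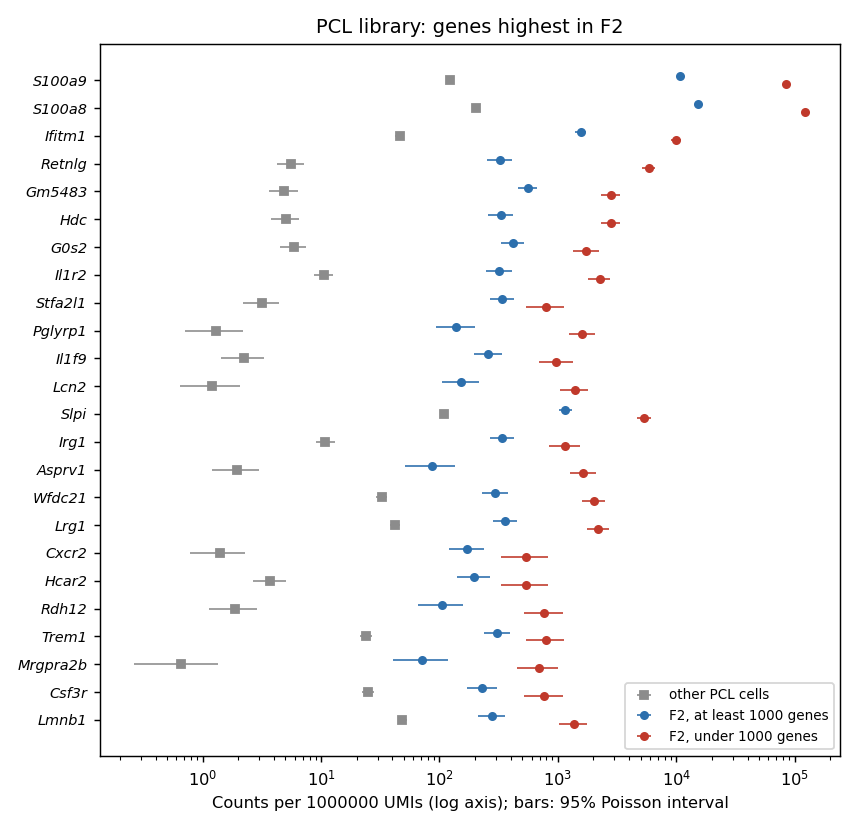
Counts per 1000000 UMIs (x axis, log scale) of the genes with the highest ratios of PCL F2 cells to other PCL cells, in 1708 other cells, 28 gene-rich and 17 gene-poor F2 cells. Points are summed levels and bars are 95% Poisson intervals, which cover counting error only. For each gene the other cells are lowest and the gene-poor cells highest, as for Retnlg at 5.58, 325 and 5840 CPM.

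Receptors through which neutrophils are called to a wound were present in many of the cells. Cxcr2 was at 230 against 1.39 CPM and was found in 10 gene-poor and 19 gene-rich cells. Csf3r was at 314 against 24.9 CPM, 12.6-fold higher (9.68 to 16.3), in 33 of 45 cells. Fpr1, a receptor for bacterial formyl peptides, was at 161 against 7.53 CPM, and Fpr2 at 149 against 18.0 CPM. Hcar2, a receptor for niacin and ketone bodies, was at 249.9 against 3.72 CPM. C5ar1, the complement C5a receptor that macrophages also carry, was at 883 against 608 CPM, and Ccr2, the monocyte chemokine receptor, at 310 against 295 CPM. Of 13 chemoattractant receptors measured, 11 reached the minimum level, and 7 of these were at least 1.5-fold higher and 0 lower, with nothing added to the levels. By that rule 211 (14.0%) of all 1511 genes at the minimum were higher and 202 (13.4%) lower. Of the 11 receptors 6 reached the minimum only through F2, Cxcr2, Fpr1, Fpr2 and Hcar2 among them, so they could not have come out lower. Ly6g, the surface antigen often used to sort mouse neutrophils, gave 9 UMIs in 5 F2 cells and 0 UMIs in other PCL cells, at least 130-fold higher. Of these 5 cells, 4 were gene-poor.

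Of 21 genes of pattern recognition and its signalling measured, 14 reached the minimum, 1 of them only through F2. Of the 14, 9 were at least 1.5-fold higher and 0 lower, against the 14.0% and 13.4% of all genes. Trem1, an amplifying receptor of neutrophils and monocytes, was at 383 against 24.0 CPM in 37 of 45 cells. The lectin receptors Clec4e (822 against 276 CPM) and Clec4d (915 against 428 CPM), which recognise fungal and damaged-cell ligands, and Cd14 (1814 against 933 CPM) were among the 9. Mrgpra2b, a receptor of the Mas-related family, gave 42 UMIs in 18 F2 cells and 7 UMIs in other PCL cells.

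Of 7 interleukin-1 family genes measured, 3 (Il1b, Il1rn and Il1f9) reached the minimum. All 3 were at least 1.5-fold higher in each range of F2 cells. Over all genes compared, 35.0% were so in gene-poor and 10.8% in gene-rich cells. Il1f9, itself 1 of the 7 markers, reached the minimum only through F2. The other 4 stayed under it, and 3 of them gave 0 UMIs in gene-poor cells. Il1f9 was at 371 CPM in F2 (interval 299 to 455) and at 2.23 CPM in other PCL cells, 166-fold higher (105 to 273). Per cell it ran from 0 to 16 UMIs, with a median of 1, in gene-poor cells, and from 0 to 10, with a median of 1, in gene-rich cells. It was found in 11 of 17 and 15 of 28 cells, or 53.4% and 24.1% after thinning, against 0.378% of other cells, and F2 held 79.3% of all Il1f9 UMIs of the PCL library. Il1b was at 3580 against 611 CPM, 5.86-fold higher (5.46 to 6.29), and was present in all 45 cells, at 1, 22 and 66 UMIs in gene-poor and 4, 13.5 and 59 in gene-rich cells. The receptor antagonist gene Il1rn was at 838 against 376 CPM, with 22.1% of its F2 UMIs in 1 cell. The decoy receptor Il1r2 was at 625 against 10.6 CPM, 59.0-fold higher (46.0 to 75.8), and the coreceptor Il1rap at 76.6 against 13.9 CPM. Il1a gave 1 UMI and Il23a, a subunit of interleukin-23, gave 1 UMI, which is too few to place. Il17ra, the receptor for interleukin-17, was at 76.6 against 36.3 CPM in 18 of 45 cells.

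Chemokine genes did not move as a block. Cxcl2, a ligand of CXCR2, was at 6486 against 2496 CPM, 2.60-fold higher (2.47 to 2.73), and every F2 cell held it, but 29.0% of its UMIs came from 1 cell. Cxcl3 (476 against 429 CPM) and Cxcl1 (262 against 265 CPM), ligands of the same receptor, were near the level of other cells. Ccl4 was at 2298 against 369 CPM and Ccl3 at 963 against 164 CPM, but 55.97% and 72.8% of their UMIs came from single cells, so neither describes the cluster. Ccl7 (919 against 1343 CPM), Ccl2 (556 against 800 CPM) and Ccl12 (72.6 against 200.4 CPM), which attract monocytes, were below other cells, Ccl12 alone by more than 1.5-fold. Ppbp, a chemokine gene best known from platelets, was at 56.4 against 318 CPM. Of 31 chemokine and cytokine genes measured, 19 reached the minimum, 1 of them only through F2. Of the 19, 5 were at least 1.5-fold higher and 3 lower, against 14.0% and 13.4% of all genes. The lower count is thus near the share over all genes.

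Over all genes of the PCL library with at least 100 CPM in F2 or in other cells, 98 of 1511 (6.49%) were higher in F2 by a factor of 2 or more and 10 (0.662%) lower by as much, after adding 25 CPM to each level. Of the 56 genes in the neutrophil list, 48 were measured and 41 reached that minimum, of which 37 passed 2-fold. Of the 41, 30 reached it only through F2, so that share is no support for the name. Over all 48 genes, with no minimum and nothing added, 46 were at least 1.5-fold higher and 0 lower. At the same setting 14.3% of the 13082 genes with a UMI were higher and 47.5% lower. The 48 include the 7 markers that give F2 its working name, and the list was chosen with earlier results of these data known. The 46 are thus no support for the name either.

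Of the 10 lower genes, all but Ccl12 stood higher in FP1, the largest PCL cluster, than over all other PCL cells. Mmp12 (macrophage elastase), Lpl (lipoprotein lipase), Acp5 (an acid phosphatase), Cd36 (a fatty acid receptor), Gpnmb, Lyz1, Ccl12, Mmp19, Ppbp and Pdpn (podoplanin) made up the 10. Mmp12 was at 141 CPM in F2, 712 CPM in all other PCL cells, 1057 CPM in the 1036 FP1 cells and 99.7 CPM in the 455 F1 cells. Pdpn was at 145 CPM in F2, 468 CPM in FP1 and 50.01 CPM in F1, with 58.3% of its F2 UMIs in 1 cell. Cd36 was at 278, 1030 and 234 CPM and Gpnmb at 56.4, 237 and 22.2 CPM in F2, FP1 and F1. Against F1 alone, then, Mmp12, Cd36, Gpnmb and Pdpn turned from lower to higher in F2. Ccl12, at 72.6 CPM in F2, was at 488 CPM in F1 and 51.5 CPM in FP1.

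Macrophage transcripts were present in F2 at close to the level of the library when the 45 cells were summed. C1qa (1794 against 1622 CPM), C1qb (2386 against 2062 CPM) and C1qc (1467 against 1307 CPM), which encode complement C1q, were near other PCL cells. So were Adgre1 (the antigen F4/80, 306 against 272 CPM), Fcgr1 (the high-affinity IgG receptor, 278 against 255 CPM), Csf1r (the receptor of the macrophage growth factor, 298 against 345 CPM) and Mrc1 (the mannose receptor, 419 against 426 CPM). Of 18 macrophage genes measured, 16 reached the minimum, with 0 at least 1.5-fold higher and 3 lower and a median log2 ratio of -0.14. Among all 1511 genes 14.0% were at least 1.5-fold higher and 13.4% lower, with a median of -0.11.

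This sum hid a difference between the 2 ranges. In gene-poor cells 15 of 16 macrophage genes were at least 1.5-fold lower than in other PCL cells, with a median log2 ratio of -1.80. Over all 702 genes with at least 250 CPM on the higher side 44.7% were lower and 35.0% higher in gene-poor cells by that rule, with a median of -0.23. In gene-rich cells 0 of 16 macrophage genes were lower or higher, with a median of -0.05, against 4.19% lower and 10.8% higher of 573 genes, with a median of -0.04. C1qc gave 0, 0 and 1 UMI per cell (lowest, median, highest) in gene-poor and 0, 9 and 62 in gene-rich cells, against a median of 4 in other cells, and stood at 76.8, 1727 and 1307 CPM. That is 17.0-fold lower in gene-poor than in other cells (5.82 to 82.5). Mrc1 gave 0 UMIs in all 17 gene-poor cells, at least 5.55-fold lower, and 498 CPM in gene-rich cells. Apoe (apolipoprotein E) was at 1818 CPM in gene-poor, 8582 in gene-rich and 8028 in other cells, and Lyz2 (lysozyme) at 4175, 11491 and 16429 CPM.

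Summed over 11 macrophage markers, the share of UMIs was 0.143 to 0.542% per gene-poor cell (median 0.243%), 0.336 to 6.03% per gene-rich cell (median 1.47%) and a median of 1.19% in other PCL cells. The 25 other PCL cells with under 1000 genes had a median of 0.924% (0.178 to 4.87%). No gene-poor cell held as many as 8 of the 11 macrophage markers. Of the gene-rich cells 22 of 28 did, and 20 held them together with at least 4 of the 7 neutrophil markers. Of the 1708 other PCL cells 14 held both sets, at a median depth of 10044 UMIs. No doublet caller was run, and the part of droplets with more than 1 cell in the gene-rich range was not tested.

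**Figure D3:**
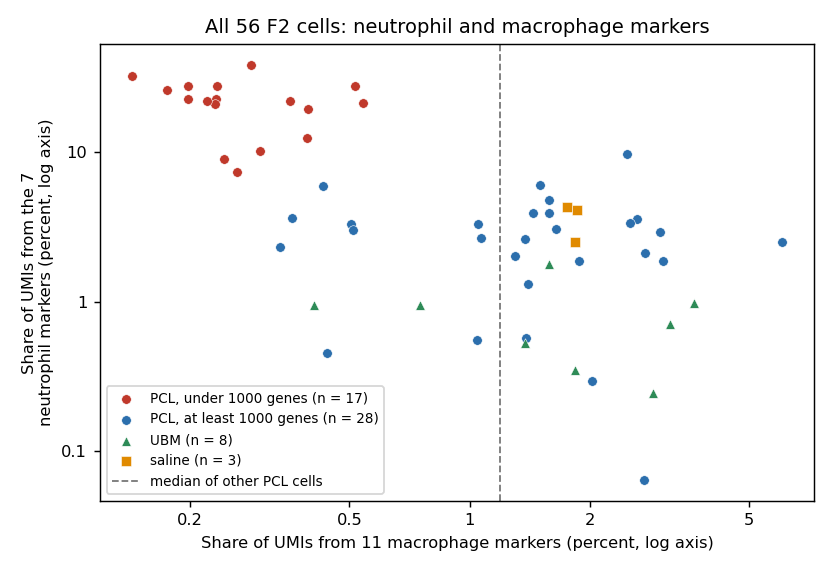
Share of UMIs from 11 macrophage markers (x axis, percent, log scale) against the share from the 7 neutrophil markers (y axis, percent, log scale) in all 56 F2 cells. Each point is 1 cell, in colours for the 17 gene-poor and 28 gene-rich PCL cells, the 8 UBM cells and the 3 saline cells, and the dashed line is the median of other PCL cells (1.19%). All gene-poor cells lie left of the line, while gene-rich cells lie on both sides of it.

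MHC class II genes, which present antigen to T cells, split in the same way. Cd74, the invariant chain, gave 0, 2 and 8 UMIs per gene-poor cell and 0, 39.5 and 361 per gene-rich cell, and stood at 819.6, 8998 and 7894 CPM in gene-poor, gene-rich and other cells. H2-Ab1 was found in 4 of 17 gene-poor cells, at 1 UMI each at most, and in 26 of 28 gene-rich cells, at 102, 2856 and 2520 CPM. Its level in gene-poor cells was 24.6-fold lower than in other cells (9.61 to 90.3). Of 11 class II genes measured 4 had at least 250 CPM, and all 4 were at least 1.5-fold lower in gene-poor cells, against 44.7% of all genes, with a median log2 ratio of -3.19, and 0 of 4 were so in gene-rich cells, against 4.19%, with a median of 0.21. Of the monocyte genes at that minimum 5 of 7 were lower and 1 higher in gene-poor cells (median -2.07), against 44.7% and 35.0% of all genes, Ccr2 among the lower at 51.2 against 295 CPM, and 1 of 6 was lower in gene-rich cells (median 0.10), against 4.19%.

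The whole profile differed in breadth between the ranges. For these smaller groups a minimum of 250 CPM was used, because 1 UMI is 25.6 CPM in the gene-poor sum. Of 702 genes, 197 (28.1%) were higher and 259 (36.9%) lower by 2-fold or more, with 25 CPM added, in gene-poor cells than in other PCL cells. Of 573 genes, 32 (5.58%) were higher and 4 (0.698%) lower in gene-rich cells. Neutrophil list genes made up 40 of the 197 and 19 of the 32. List genes were 42 of the 702 genes compared and 24 of the 573. Of these, 34 and 16 reached the minimum only through F2 and could not have come out lower. The list also holds the 7 markers, so these counts are no support for the name. A trimmed-mean scaling shifted all log2 ratios of gene-poor cells by -0.17 and those of gene-rich cells by -0.02.

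Il1b, Il1f9, Il1r2, Csf3r and Trem1 stood above other PCL cells in both ranges, at different heights. Il1b was 15.9-fold (14.3 to 17.7) above other PCL cells in gene-poor and 3.98-fold (3.63 to 4.36) in gene-rich cells. Il1f9 was at 973 and 258 CPM, Csf3r at 768 and 229.6 CPM and Trem1 at 794 and 306 CPM. Of 20 growth factor and cytokine receptor genes measured, 5 reached 250 CPM for gene-poor cells. Of these, Il1r2, Csf3r and Trem1 were at least 1.5-fold higher and Csf1r and Trem2 lower, against 35.0% and 44.7% of all genes. The lower count is near the share over all genes. For gene-rich cells 4 reached that minimum, while Csf3r was under it. Of the 4, Il1r2 and Trem1 were higher and 0 lower, against 10.8% and 4.19% of all genes. These higher genes reached the minimum only through F2, and Il1r2 is 1 of the 7 markers. Of 21 pattern recognition genes measured, 10 reached 250 CPM for gene-poor cells, with 7 at least 1.5-fold higher and 2 lower, against 35.0% and 44.7% of all genes. For gene-rich cells 8 reached it, with 4 higher and 0 lower, against 10.8% and 4.19%. Of these 10 and 8 genes, 3 and 1 reached the minimum only through F2 and could not have come out lower. Levels in the 2 ranges were, in that order, 4764 and 1263 CPM for Cd14 and 1588 and 679 CPM for Clec4e. Wfdc17, a whey acidic protein gene that activated macrophages also express, was at 11397 and 5080 CPM against 2113 CPM in other cells. Cd9, a membrane protein of the tetraspanin family, was at 2715 CPM in gene-poor, 756 in gene-rich and 860.5 CPM in other cells.

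Transcription factor genes of myeloid cells were also measured. Cebpb, a C/EBP factor of myeloid cells, was at 8426, 3650 and 2452 CPM in gene-poor, gene-rich and other cells, and Spi1, which encodes PU.1, at 948, 388 and 406 CPM. Cebpe, which acts in granule formation in the marrow, gave 0 UMIs in F2. Mcl1, on which neutrophil survival depends, was at 538, 703 and 610 CPM, with 10 of 17 gene-poor cells holding it. The glycolysis and hypoxia genes had medians of 0.00 and -0.09. Mki67 and Top2a, genes of dividing cells, gave 0 UMIs in PCL F2 cells.

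**Figure D4:**
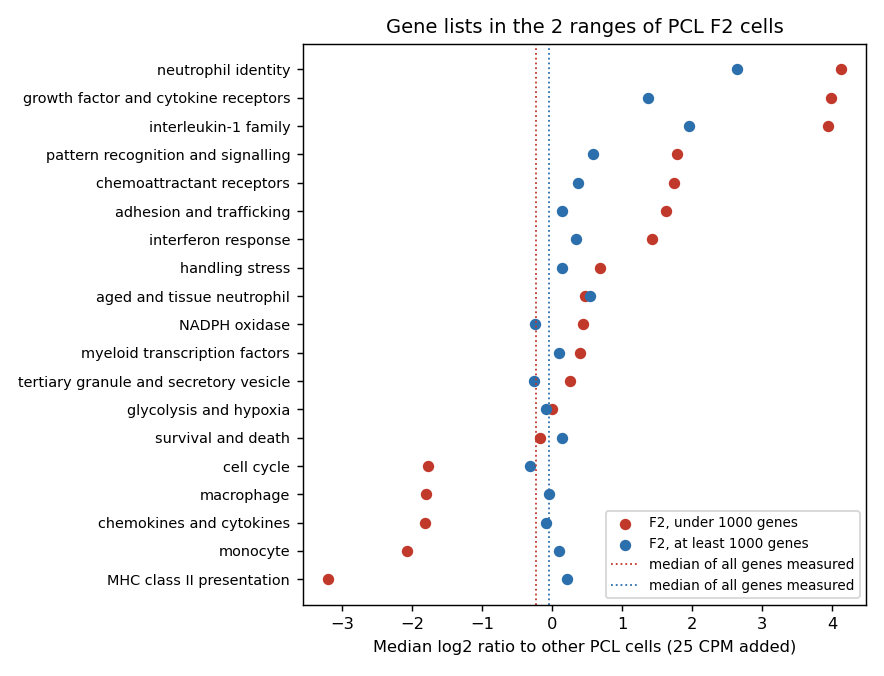
Median log2 ratio to other PCL cells, with 25 CPM added (x axis), of each gene list (y axis) in 17 gene-poor and 28 gene-rich F2 cells, over members with at least 250 CPM on the higher side. Points are medians and dotted lines are the medians of all genes measured (-0.23 and -0.04). MHC class II, monocyte and macrophage lists lie at -3.19, -2.07 and -1.80 in gene-poor cells and close to 0 in gene-rich cells.

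Markers of other cells were at or near 0. Over the 45 PCL cells the only mast cell gene measured, the only basophil gene and all 3 eosinophil genes gave 0 UMIs, Siglecf among them. No dendritic cell, T and NK cell, B cell, fibroblast, endothelial or muscle fibre gene reached 100 CPM. The platelet genes Pf4 (4220 against 5655 CPM) and Ppbp were the exception, and both were below other PCL cells.

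Across the 45 PCL cells the marker share fell with size and rose with a few genes. Pearson's r of the marker share with log10 genes per cell was -0.78, with log10 UMIs -0.72, with the ribosomal share -0.67 and with the macrophage marker share -0.50. These are descriptions over cells of 1 library, whose shares add up to a whole. The genes that followed the marker share most closely were S100a11 (r = 0.73), Hp (0.69), Wfdc21 (0.68), Msrb1 (a methionine sulfoxide reductase, 0.67) and Vasp (an actin regulator, 0.67). The gene that ran most against it was Fcgr2b, the inhibitory IgG receptor (r = -0.78), found in 2 of 17 gene-poor and 28 of 28 gene-rich cells.

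Set against the PCL clusters F1, FP1, RP1, RP2 and RP3 by 1000 genes that are not neutrophil genes, each F2 cell had a most similar cluster. The PCL cells of R1 (14) and R3 (16) were not among the clusters compared. Of the 28 gene-rich cells, 15 were closest to F1, 6 to FP1, 5 to RP3 and 2 to RP1, with a median r of 0.72. Of the 17 gene-poor cells, 7 were closest to F1, 6 to FP1 and 4 to RP1, with a median r of 0.51 (0.43 to 0.55). The gene-rich cells thus did not all resemble 1 cluster.

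The 8 UBM F2 cells held less of the neutrophil genes. Their depth was 2206 to 6550 UMIs and they held 1050 to 2057 genes, so none was under 1000 genes. The cells with 1050, 1105 and 1253 genes lay between the 2 ranges of PCL F2 cells, in neither of them. S100a8 was at 3452 CPM (8 of 8 cells, 3 to 38 UMIs) against 5.43 CPM in other UBM cells, and S100a9 at 3542 against 2.27 CPM. Retnlg, Irg1, Rdh12 and Lmnb1 gave 0 UMIs, and a count of 0 allows up to 90.0 CPM at this depth, more than each had in other UBM cells, so no direction can be given for them, while Hdc (7 of 8 cells), Il1r2 (4 of 8), Cxcr2 (4 of 8) and Csf3r (6 of 8) were present. Il1f9 gave 3 UMIs, in 2 cells. Per 100 UMIs of S100a8 there were 103 of S100a9 (78.7 to 134), an interval that lies above both of those in PCL F2 cells.

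In macrophage genes the UBM F2 cells stood near the rest of their library. C1qa was at 2281 against 2706 CPM, Mrc1 at 1110 against 1168 CPM and Arg1 (arginase) at 3962 against 2971 CPM, with Mrc1 and Arg1 in 8 of 8 cells. Summed over cells, MHC class II genes were lower. Cd74 was at 900.4 against 4710 CPM, H2-Ab1 gave 1 UMI and H2-Eb1 gave 0, at least 11.9-fold below other UBM cells. The median cell was not lower: class II genes made up 0.0676% of its UMIs in F2 and 0.0616% in other UBM cells. The highest shares were 0.402% in F2 and 11.3% in other UBM cells. Whether these differences from PCL go with the treatment or with the library cannot be told apart.

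The 3 saline F2 cells had another pattern and lay close together. They held 2731, 3027 and 3087 UMIs and 1094, 1101 and 1086 genes, with 62, 111 and 117 UMIs of S100a8 and 6, 11 and 14 UMIs of S100a9. S100a9 was thus at 10.7 UMIs per 100 of S100a8 (7.13 to 15.5), below each group of PCL cells. Il1f9 gave 1, 3 and 2 UMIs in those cells, 6 in all and 678 CPM, while the 338 other saline cells gave 0. Slpi was at 5653 against 13.3 CPM and Il1b at 3957 against 764 CPM. Cd74 was at 31430 against 15995 CPM, H2-Ab1 at 8479 against 5803 CPM and Apoe at 10741 against 21310 CPM. Retnlg, Il1r2, Hdc, G0s2, Csf3r, Trem1, Asprv1 and Stfa2l1 gave 0 UMIs, and a count of 0 allows up to 339 CPM at this depth.

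Because F2 is rich in a few genes, it also carries much of those genes' total in the PCL library. For 45 neutrophil list genes with at least 30 UMIs there, the median share in F2 was 26.2%, while F2 held 2.25% of all UMIs. F2 held over 50% of the UMIs of 17 of them and over 75% of those of 12. All 7 markers are among the 17, and the list was chosen with earlier results of these data known. These counts thus describe F2 and are no support for its name. For S100a8 the share was 78.4%, for S100a9 80.8%, for Retnlg 83.1% and for Lcn2 86.9%. For Slpi it was 27.8%, for Il1b 11.9% and for Cxcl2 5.65%, so most transcripts of these 3 genes lay in other cells.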

How the data were processed

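The authors deposited 1 table of UMI counts for 13242 genes in 4374 cells and 1 table with each cell's condition and cluster. Per the labels' protocols, cells were encapsulated on the 10x platform with 3' v2 chemistry. Per the submitters' processing notes, Cell Ranger and Seurat 2 were used, and the build listed is human, while the symbols in the table are mouse. The sources used here give no filters on cells. The condition names were matched to the labels by meaning (extracellular matrix as UBM, synthetic as PCL, buffered saline as saline).

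Raw counts were summed over cells and divided by the total of the group, times 1000000, to give CPM. Log2 ratios have 25 CPM added, while folds have nothing added. Genes needed 100 CPM (250 CPM for gene-poor and gene-rich cells) on the higher side and were counted as higher or lower past 2-fold, list members past 1.5-fold. Intervals are exact Poisson for levels, conditional binomial for ratios and Clopper-Pearson for shares. A count of 0 was given a floor of 3 counts over the group. Thinned shares are expected shares at 1500 UMIs, which left out 0 cells. Named genes were the 25 highest and 15 lowest ratios (the highest in at least 5 cells, without mitochondrial and ribosomal protein genes), the 5 genes that correlate most with the marker share, list members and 14 fixed genes, of which some are not reported here. Fcgr2b was named after its values were seen. The members and the 33 lists were chosen with earlier results of these data known. Marker lists covered 7 neutrophil markers, macrophages, monocytes, dendritic, mast, T and NK and B cells, basophils, eosinophils, fibroblasts, endothelium, muscle fibres, red blood cells and platelets. The red blood cell genes made up 0.0101% of UMIs in PCL F2 and 0.0212% in other PCL cells. No doublet caller was run, and the main values leave out no cell. The script for counting genes was tested on simulated data. Python 3.11.15 and edgeR 4.0.16 (for trimmed-mean scaling only) were used. Alternatives were other pseudocounts, minimums, scalings, cells and comparison groups.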

Additional observations from a re-analysis of the deposited data

Results flagged for a closer look

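For 3 genes the ratio of F2 to other cells of the same library ran in opposite directions in libraries whose F2 cells number 45 (PCL), 8 (UBM) and 3 (saline), and each difference was not tested. Ccl4 had a log2 ratio of 2.56 in PCL and was at least 2.03-fold lower in saline, where F2 gave 0 UMIs, and 55.97% of its PCL F2 UMIs came from 1 cell. H2-Eb1, a class II gene, was at least 11.9-fold lower in UBM, where F2 gave 0 UMIs, and had 1.04 in saline. These are levels summed over cells, and in UBM the median class II share per cell was 0.0676% in F2 and 0.0616% in other cells. Wfdc17 had 1.51 in PCL and -1.60 in saline.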

How the results depend on the processing

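The count of 98 genes at least 2-fold higher in PCL F2 cells became 63 with 100 CPM added to each level, 150 with no minimum, 62 with a minimum of 200 CPM, 158 with each cell counted alike, 246 in the UBM library, 377 for gene-poor cells alone at 100 CPM and 63 for gene-rich cells alone. The count of 10 lower genes became 18 with 10 CPM added, 4 with 100 CPM added, 30 with no minimum, 64 with each cell counted alike, 43 without the 25% of F2 cells highest in macrophage markers, 43 against F1, 36 against FP1, 129 in the UBM library and 643 for gene-poor cells, where genes at 0 UMIs are among the lower ones. The median log2 ratio of the neutrophil list, 2.77, became 3.62 and 1.75 with 10 and 100 CPM added, 3.30 with a minimum of 200 CPM, 3.22 with each cell counted alike, 3.99 in gene-poor and 2.37 in gene-rich cells. The macrophage median, -0.14, became -0.41 with each cell counted alike, -0.67 without those 25% and -1.80 in gene-poor cells. Against F1 the log2 ratios of Mmp12 (0.41), Cd36 (0.22), Gpnmb (0.79) and Pdpn (1.18) turned higher, and against FP1 that of Ccl12 (0.35). In the UBM library Cd36 (0.16), Lyz1 (0.29) and Mmp19 (0.68) turned higher, on 23, 2 and 4 UMIs in F2. Retnlg, Irg1, Rdh12, Mrgpra2b, Lmnb1, Ppbp, Pdpn and Cav1 gave 0 UMIs there and no value, since the floor of 90.0 CPM lies above their level in other UBM cells. By at least 4 markers in place of the cluster label, 0% of saline cells were chosen. Trimmed-mean scaling, leaving out the cell of over 10% mitochondrial UMIs and leaving out the F2 cell that shares a barcode left all 26 higher named genes past 2-fold and 9 of 10 lower ones. The split by genes per cell, the total without the markers and the left-out barcode were added after the data were seen. Causes were not tested. No paired analysis was possible because each treatment has 1 library. In the gene-poor sum 1 UMI is 25.6 CPM, in saline F2 113 CPM, which limits what can be seen of genes at low levels there.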

Other observations

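The 3 saline F2 cells were about as like each other as the most alike pairs of saline cells of their depth. Their pairwise correlations were 0.64 to 0.66, against a median of 0.54 and a highest of 0.68 over 595 pairs of 35 other saline cells with 2500 to 3300 UMIs, of which 4 pairs were above the lowest of the 3. This is a description of cells of 1 library, and whether the 3 cells are independent was not tested.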
